A study of Mus musculus with 32 samples.

Results

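The Slc25 genes encode the mitochondrial carrier family, and 46 of them were measured among the 22180 genes of a kidney data set on Alport-type disease. Members were the genes whose symbol starts with Slc25a and a number, each taken from an array feature that names no other gene. In the knockout kidney at 7 weeks 25 of the 46 were lower than in wild type, against 16.7% of all genes. A further 2 were higher, against 15.6% of all genes, and 1 of them, Slc25a24, rose by 4.6-fold. At 4 weeks no member passed the test, and of all 22180 genes only 7 were higher and 2 lower.

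The kidneys came from male mice of strain 129, either Col4a3-/- (KO) or Col4a3+/+ littermates (WT). Col4a3 encodes a chain of the type IV collagen of the glomerular filter, and its loss models Alport syndrome. The 4 groups were WT at 4 weeks, KO at 4 weeks, WT at 7 weeks and KO at 7 weeks, with 8 mice and 8 Affymetrix Mouse Gene 2.0 ST arrays in each. RNA was from kidney tissue with all its cell types, so fewer cells of a type and less RNA per cell cannot be told apart in any value below. The extent of the Col4a3 deletion is not stated in the labels.

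The deposited log2 signals are per gene and follow RMA, the authors' background correction, normalization and summary of probes. A difference of 1 on this scale is a doubling, and signals of different genes are not set against each other because probes differ. Differences are limma estimates with their standard errors over 8 mice per group, and a gene passed at a Benjamini-Hochberg adjusted p below 0.05 over all 22180 genes. The number of arrays limits the precision. Col4a3 averaged 7.91 in KO against 8.90 in WT mice at 4 weeks and 7.27 against 8.92 at 7 weeks, with no overlap at either age. Correlations between arrays within a group ran from 0.965 to 0.995. WT mice 5 and 8 at 4 weeks stood apart in earlier results of these data, with mean macrophage marker levels of 7.28 and 7.62 against 6.53 to 6.65 in the other WT mice of that age. For comparisons that use that group, the counts of passing members on the deposited scale are given with and without them.

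Mitochondrial carriers sit in the inner mitochondrial membrane and exchange metabolites, nucleotides and cofactors between the matrix and the cytosol. Kidney tubules, above all the proximal tubule, are packed with mitochondria and use carriers for oxidative ATP supply, ammonia formation, gluconeogenesis and amino acid breakdown. Most members have a single known substrate class, which is how they are ordered here.

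Setting KO against WT kidney at 7 weeks asks which carriers differ in advanced disease. Of the 46 members, 25 (54.3%) were lower in KO kidney, where 16.7% of all 22180 genes were lower. A further 2 members were higher, against 15.6% of all genes. The median difference was -0.22 over the members and -0.06 over all genes. Estimates lay below 0 for 39 of the 46 members and for 13631 of all 22180 genes. At least 1.5-fold changes were seen in 8 of the 25 lower members and in both higher ones, and over all genes in 648 of 3698 lower and 1515 of 3469 higher. Centring each array on its median lowered the median difference of all genes from -0.06 to -0.18, and the share of passing genes that were higher went from 48.4% to 23.6%. After centring 36 members were lower, against 37.5% of all genes, and 2 were higher, against 11.6% of all genes.

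**Figure D1:**
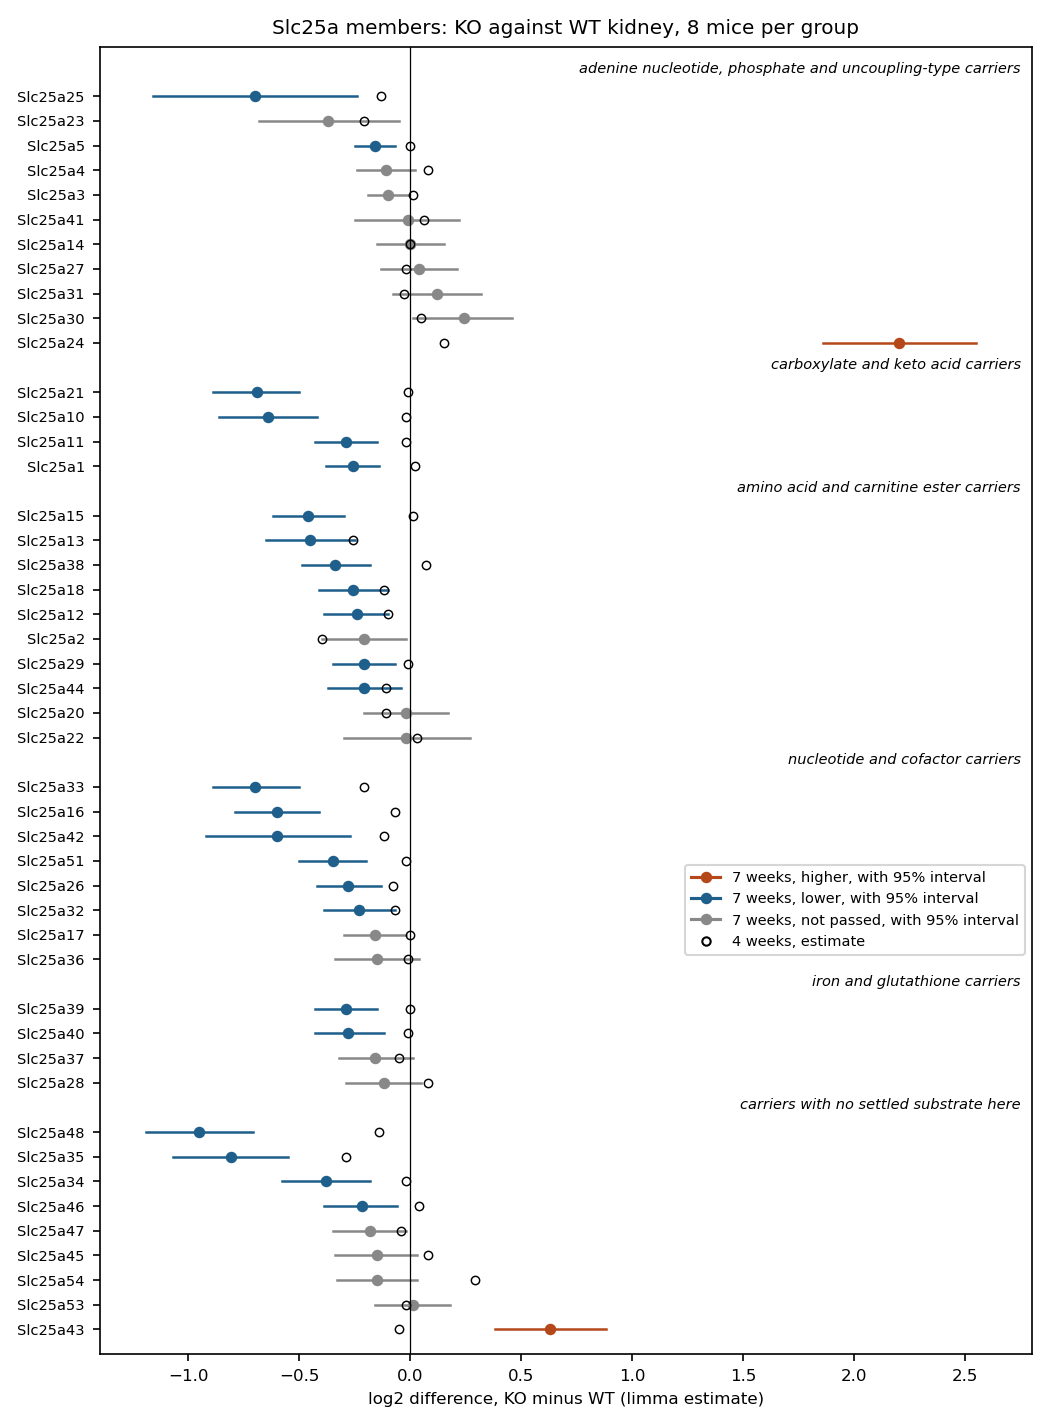
Log2 difference between KO and WT kidney for each of the 46 Slc25a members, grouped by substrate class, with 8 mice per group. Filled points with 95% intervals are 7 weeks (red higher, blue lower, grey not passed) and open circles are 4 weeks. Slc25a24 stands alone at 2.20, and all 4 carboxylate and keto acid carriers lie below 0 at 7 weeks while their circles lie near 0.

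The group without overlap was smaller. All 8 KO mice lay below all 8 WT mice at 7 weeks for 12 members, which are Slc25a5, Slc25a10, Slc25a11, Slc25a13, Slc25a15, Slc25a16, Slc25a21, Slc25a23, Slc25a32, Slc25a33, Slc25a35 and Slc25a48. This held for 5.42% of all genes. All 8 KO mice lay above all WT mice for 1 member, Slc25a24, and for 7.62% of all genes.

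Carriers of adenine nucleotides and phosphate, with the uncoupling-type carriers, showed the widest spread: of 11 members 1 was higher, 2 were lower and 8 did not pass. Slc25a24 is one of the ATP-Mg/phosphate carriers, which are switched by calcium and adjust the adenine nucleotide content of the matrix. Its signal at 7 weeks was 6.30 at the lowest, 6.50 at the median and 6.84 at the highest in WT mice, and 7.68, 8.75 and 9.57 in KO mice. The lowest KO mouse thus lay above the highest WT mouse, and the KO mice spanned a wider range (SD 0.67 against 0.18). The limma difference was 2.20 ± 0.17 (4.6-fold, adjusted p = 4.86e-12). Its standard error was also 0.17 at 4 weeks, where the SD was 0.14 in both groups. Pooled over the 4 groups, it does not show the wider spread of the KO mice at 7 weeks. The two-sided exact permutation p was 0.000155, the smallest that the 12870 splits of 8 and 8 mice can give. Groups without overlap always reach that value. Its neighbour on chromosome 3, Slc25a54, has no protein-coding gene between them and stayed near 4 on the log2 scale in every group. The 250 bases before the RefSeq start of each gene (GRCm38.p6, both on the plus strand, 5′ to 3′) are shown for the member that rose most and its neighbour. The signal of Slc25a54 is too low to be told apart from background here, so its response is not set against that of Slc25a24. The stretch of Slc25a24 is chr3:109122899-109123148, and that of Slc25a54 is chr3:109080249-109080498.
Slc25a24: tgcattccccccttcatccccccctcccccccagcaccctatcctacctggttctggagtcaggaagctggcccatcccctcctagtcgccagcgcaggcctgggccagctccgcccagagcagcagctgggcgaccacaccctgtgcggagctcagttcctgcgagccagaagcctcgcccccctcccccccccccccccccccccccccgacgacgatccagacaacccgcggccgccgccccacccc
Slc25a54: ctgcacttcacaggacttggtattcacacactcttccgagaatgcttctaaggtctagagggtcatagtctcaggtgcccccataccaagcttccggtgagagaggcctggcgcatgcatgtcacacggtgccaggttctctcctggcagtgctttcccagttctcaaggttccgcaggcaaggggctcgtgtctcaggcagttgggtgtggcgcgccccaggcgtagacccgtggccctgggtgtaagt
With the 50 bases after the start included, GC content was 72.3% for Slc25a24 and 60.3% for Slc25a54, with 19 and 15 CpG dinucleotides.

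The other ATP-Mg/phosphate carriers did not share the rise. Slc25a25, which is known to respond to hormones and cAMP, was lower by 1.62-fold in KO mice at 7 weeks. Its signals were 7.38, 8.15 and 8.80 (lowest, median, highest) in WT and 6.71, 7.44 and 8.02 in KO mice, so the groups overlapped. The difference was -0.70 ± 0.22 (adjusted p = 0.0153, exact permutation p = 0.00699). Slc25a23 had signals of 10.18, 10.29 and 10.44 in WT and 9.56, 9.89 and 10.17 in KO mice, without overlap. Its limma difference of -0.37 ± 0.16 nonetheless did not pass (adjusted p = 0.07) in the fit over all 4 groups. There its SD ranged from 0.09 (WT at 7 weeks) to 0.54 (KO at 4 weeks). It passed in 4 of 26 alternative fits, and over all fits its limma adjusted p reached up to 0.147. Slc25a41, next to Slc25a23 in the genome with no protein-coding gene between, was near 4.4 in all groups and differed by -0.01. No detection call is used here, so signals this low are not told apart from background.

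**Figure D2:**
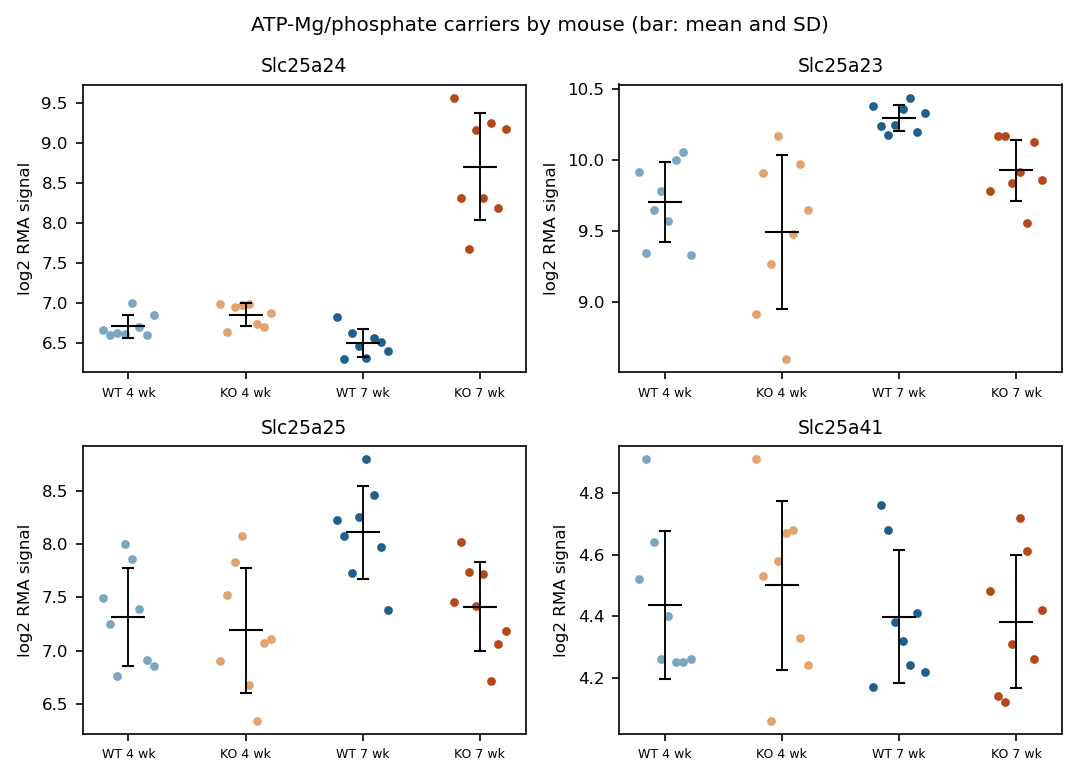
Log2 RMA signal of the ATP-Mg/phosphate carriers Slc25a24, Slc25a23, Slc25a25 and Slc25a41 in each mouse, with the mean and SD of 8 mice as bars and a separate axis range per panel. Only the KO mice at 7 weeks stand apart for Slc25a24, while Slc25a23 and Slc25a25 lie lower in KO than in WT mice at 7 weeks and Slc25a41 does not separate.

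One of the 3 RefSeq starts of Slc25a25 holds a full cAMP response element, TGACGTCA, which 2.03% of all genes with a promoter in the table carry. The stretch chr2:32424067-32424316 (GRCm38.p6, minus strand, 5′ to 3′) is shown for that site, which is in capitals and begins 150 bases before the start.
Slc25a25: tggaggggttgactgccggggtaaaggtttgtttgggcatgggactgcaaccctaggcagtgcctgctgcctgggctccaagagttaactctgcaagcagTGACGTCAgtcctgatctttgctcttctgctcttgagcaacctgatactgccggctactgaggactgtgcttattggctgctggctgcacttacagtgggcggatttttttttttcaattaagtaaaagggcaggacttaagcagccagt
Among members only Slc25a36 held the same letters.

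The ADP/ATP carriers, which exchange matrix ATP for cytosolic ADP, moved little. Slc25a5, the broadly expressed form, fell by 0.16 ± 0.04 at 7 weeks (1.12-fold, adjusted p = 0.00589). Its signals were 12.83, 12.85 and 12.88 in WT and 12.57, 12.69 and 12.76 in KO mice, a small shift without overlap. Slc25a4, the heart and muscle form, had signals of 9.21, 9.30 and 9.45 in WT and 9.04, 9.19 and 9.36 in KO mice. The difference of -0.11 ± 0.06 did not pass in limma (adjusted p = 0.178), with an exact permutation p of 0.0166. It passed in 2 of 26 alternative fits, after centring of the arrays (-0.23, adjusted p = 0.00545) and with array weights (-0.12, adjusted p = 0.0499). Over all fits its limma adjusted p reached up to 0.318. Slc25a31, a form of the testis, had signals near 5 and differed by 0.12. The phosphate carrier Slc25a3, which feeds ATP synthase, differed by -0.10 and did not pass (adjusted p = 0.085).

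Uncoupling-type carriers did not pass at 7 weeks. Slc25a30, also called the kidney mitochondrial carrier, had signals of 10.09, 10.37 and 10.85 in WT and 10.32, 10.66 and 10.86 in KO mice. The groups overlapped and the difference of 0.24 ± 0.11 did not pass in limma (adjusted p = 0.102, exact permutation p = 0.0446). It passed in 2 of 26 alternative fits, with array weights (0.26, adjusted p = 0.0292) and without WT mouse 1 (0.30). Over all fits its estimate ran from 0.12 to 0.30, with a limma adjusted p of up to 0.352. Slc25a14 and Slc25a27, best known from brain, differed by 0.00 and 0.04.

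All 4 carboxylate and keto acid carriers were lower in KO mice at 7 weeks, with a median difference of -0.46. Slc25a21 carries oxoadipate and other oxodicarboxylates, intermediates of lysine and tryptophan breakdown. Its signals were 9.46, 9.65 and 9.74 in WT and 8.46, 9.04 and 9.27 in KO mice. Every KO mouse was lower, and the difference was -0.69 ± 0.09 (1.62-fold, adjusted p = 5.09e-07). Slc25a10, the dicarboxylate carrier, exchanges malate or succinate for phosphate. Its signals were 10.26, 10.36 and 10.49 in WT and 9.10, 9.78 and 10.07 in KO mice. The KO mice were all lower and more spread out, and the difference was -0.64 ± 0.11 (1.56-fold, adjusted p = 1.89e-05). Slc25a11, the oxoglutarate carrier of the malate-aspartate shuttle, fell by 0.29 and the citrate carrier Slc25a1 by 0.26.

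Of 10 carriers of amino acids and carnitine esters, 7 were lower and 3 did not pass, with a median difference of -0.23. Slc25a15 imports ornithine for the matrix. It was 10.61, 10.63 and 10.79 in WT and 9.81, 10.23 and 10.50 in KO mice, all KO mice lower, and the difference was -0.46 ± 0.08 (1.37-fold, adjusted p = 2.23e-05). Slc25a13 (citrin) and Slc25a12 (aralar) exchange aspartate for glutamate. Slc25a13 was 10.42, 10.59 and 10.71 in WT and 9.66, 10.13 and 10.38 in KO mice, again without overlap, and the difference was -0.45 ± 0.10 (adjusted p = 0.000492). Slc25a12 fell by 0.24 (adjusted p = 0.00687). Also lower were the glycine carrier Slc25a38 (-0.34), the glutamate carrier Slc25a18 (-0.26), the carrier of basic amino acids Slc25a29 (-0.21) and the branched-chain amino acid carrier Slc25a44 (-0.21). Slc25a18 and Slc25a29 had low signals, with means over all mice of 5.48 and 6.07, below the median gene at 6.27. Slc25a44 was close to the threshold (adjusted p = 0.046) and passed in 14 of 26 alternative fits. The other glutamate carrier, Slc25a22, differed by -0.02 with a 95% interval of -0.30 to 0.27, and the carnitine-acylcarnitine carrier Slc25a20, which admits fatty acids, by -0.02 with an interval of -0.21 to 0.17. Slc25a2, a second ornithine carrier with signals near 5, did not pass (-0.21, adjusted p = 0.084).

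Of 8 measured nucleotide and cofactor carriers, 6 were lower and 2 did not pass, with a median of -0.31. Slc25a33 carries pyrimidine nucleotides. Its signals were 7.29, 7.45 and 7.85 in WT and 6.51, 6.77 and 7.25 in KO mice, with every KO mouse lower, and the difference was -0.70 ± 0.10 (1.62-fold, adjusted p = 7.95e-07). Slc25a36, the other pyrimidine nucleotide carrier, did not pass (9.98 in WT and 9.83 in KO mice on average). Slc25a42, which exchanges coenzyme A for adenine nucleotides, and Slc25a16, linked to coenzyme A by yeast studies, both fell. Slc25a16 was 11.57, 11.64 and 11.72 in WT and 10.40, 11.10 and 11.39 in KO mice, without overlap (-0.60 ± 0.09, 1.51-fold, adjusted p = 4.01e-06). Slc25a42 was 10.36, 10.47 and 10.58 in WT and 9.06, 9.96 and 10.41 in KO mice, with some overlap (-0.60 ± 0.16, adjusted p = 0.00368, exact permutation p = 0.000466). Slc25a51, the NAD carrier, fell by 0.35, the S-adenosylmethionine carrier Slc25a26 by 0.28 and the folate carrier Slc25a32 by 0.23. Slc25a17, which works in peroxisomes, did not pass (-0.16, adjusted p = 0.0824).

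Of the 4 iron and glutathione carriers, the mitochondrial glutathione importer Slc25a39 fell by 0.29 and its relative Slc25a40 by 0.28. The mitoferrins Slc25a37 and Slc25a28, which import iron, did not pass, with averages of 8.59 against 8.43 and 9.96 against 9.84 in WT and KO mice.

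The largest falls of the family were among the 9 carriers without a settled substrate in the lists used here: 4 were lower, 1 was higher and 4 did not pass. Slc25a48 had signals of 8.14, 8.50 and 8.66 in WT and 7.02, 7.44 and 8.05 in KO mice at 7 weeks. All KO mice were lower, and the difference was -0.95 ± 0.12 (1.93-fold, adjusted p = 1.16e-07). Its 250 bases before the RefSeq start are chr13:56438105-56438354 (GRCm38.p6, plus strand, 5′ to 3′). They are shown because no member fell more.
Slc25a48: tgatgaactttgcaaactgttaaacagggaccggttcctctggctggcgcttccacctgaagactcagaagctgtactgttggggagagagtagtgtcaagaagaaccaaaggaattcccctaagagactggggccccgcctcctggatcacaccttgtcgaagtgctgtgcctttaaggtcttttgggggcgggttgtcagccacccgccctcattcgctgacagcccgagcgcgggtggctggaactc
Slc25a35 was 9.61, 9.76 and 10.18 in WT and 8.73, 8.96 and 9.52 in KO mice, without overlap (-0.81 ± 0.13, 1.76-fold, adjusted p = 4.48e-06). A further feature that names Slc25a35 together with Rangrf was left out because its signal cannot be assigned, and at 7 weeks it averaged 5.78 in WT and 5.61 in KO mice. Slc25a34 fell by 0.38. Slc25a46, an outer-membrane protein of mitochondrial shape, fell by 0.22, a call that held in 19 of 26 alternative fits. Slc25a43 was the other member that rose. Its signals were 5.94, 6.29 and 6.45 in WT and 6.30, 6.80 and 7.61 in KO mice, with overlap at the low end, and the difference was 0.63 ± 0.12 (1.55-fold, adjusted p = 0.000141, exact permutation p = 0.00109). Its genomic neighbour is Slc25a5, with no protein-coding gene between, which fell. Slc25a45, Slc25a47, Slc25a53 and Slc25a54 did not pass.

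**Figure D3:**
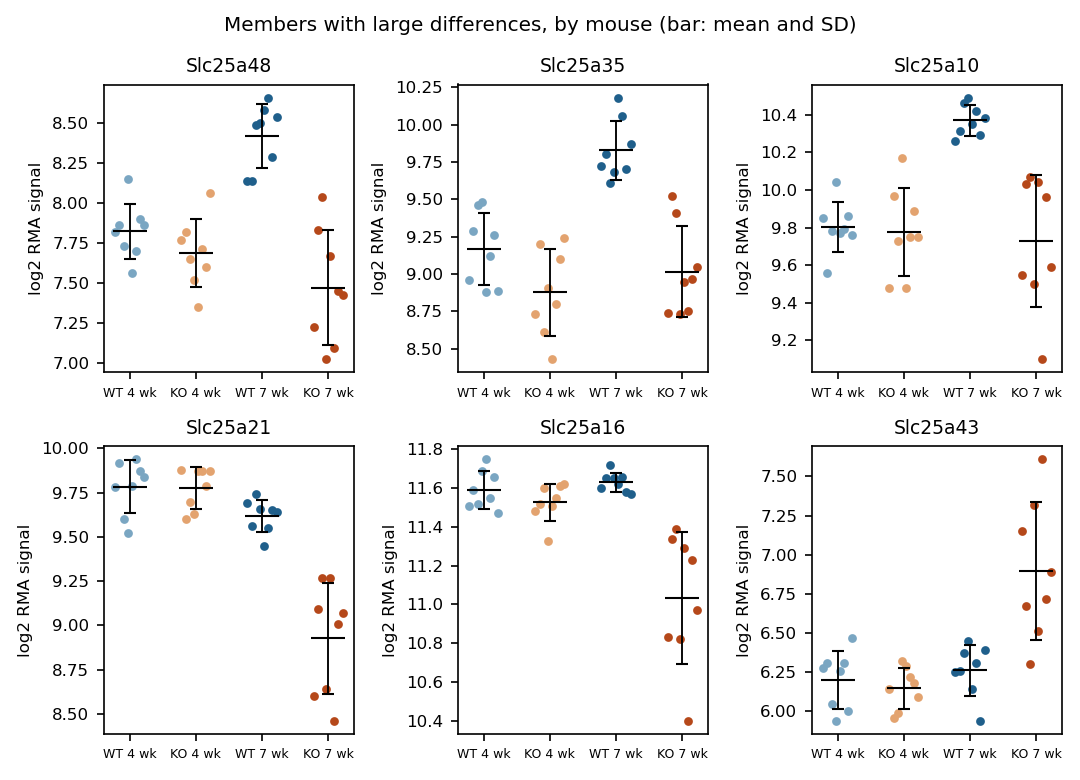
Log2 RMA signal of Slc25a48, Slc25a35, Slc25a10, Slc25a21, Slc25a16 and Slc25a43 in each mouse, with the mean and SD of 8 mice as bars and a separate axis range per panel. The KO mice at 7 weeks lie below all WT mice of that age in the panels of Slc25a48, Slc25a35, Slc25a10, Slc25a21 and Slc25a16, and mostly above them for Slc25a43.

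Markers of cell types moved in the same KO kidneys. All 16 proximal tubule markers fell at 7 weeks, with a median difference of -0.47, and their mean level was 12.37 to 12.43 in WT and 11.12 to 12.28 in KO mice. Of 15 thick ascending limb and distal nephron markers 6 fell and 1 rose, and the mean level was 9.64 to 9.88 in WT and 9.41 to 9.58 in KO mice. All 13 macrophage and myeloid markers rose, with a median difference of 2.58 and a mean level of 6.59 to 6.83 in WT and 8.34 to 9.71 in KO mice. All 10 fibroblast markers rose, with a median of 1.58 (7.47 to 7.85 in WT and 8.73 to 9.63 in KO mice), as did 7 of 10 lymphocyte markers (5.09 to 5.31 and 5.64 to 6.38). The part that these shifts have in the differences of the carriers was not tested. RMA signals have no true zero, so no marker could be called absent.

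The KO mice at 7 weeks differed among themselves in the members and in these markers, and the correlation between them was not tested. The members' median deviation from the WT mean of each gene was -0.289 in KO mouse 1, -0.139 in mouse 2, -0.112 in mouse 3 and -0.267 in mouse 4. It was -0.171 in mouse 5, -0.296 in mouse 6, -0.168 in mouse 7 and -0.277 in mouse 8, so every KO mouse lay below the WT range of -0.043 to 0.049. Slc25a24 was 9.57, 9.17, 9.25 and 9.18 in KO mice 1, 4, 6 and 8, whose mean proximal tubule level was 11.52, 11.66, 11.12 and 11.74. In KO mice 2, 3, 5 and 7 Slc25a24 was 8.32, 7.68, 8.31 and 8.19, and the tubule level was 12.11, 12.28, 12.16 and 12.14. KO mouse 3, which had the lowest Slc25a24 signal of its group, also had the lowest macrophage level, 8.34, and KO mouse 6 had the highest, 9.71.

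**Figure D4:**
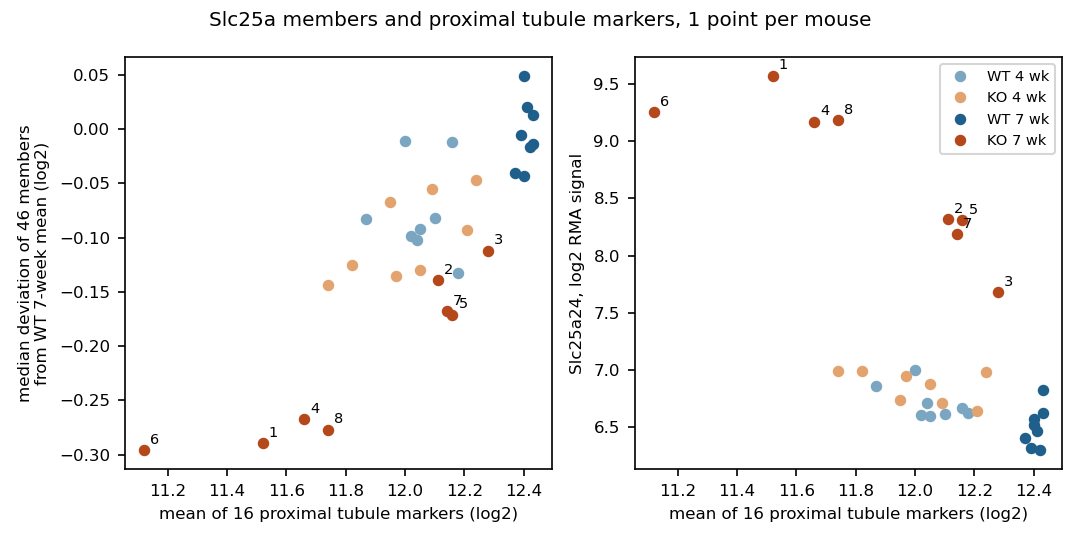
Each point is 1 of the 32 mice, with the mean log2 level of 16 proximal tubule markers on the x axis and, on the y axes, the median deviation of the 46 members from their WT mean at 7 weeks (left) and the log2 RMA signal of Slc25a24 (right). KO mice at 7 weeks are numbered as in the labels, and KO mouse 6 lies lowest on the tubule axis at 11.12, with a median deviation of -0.296.

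Other genes of mitochondrial transport were taken from lists by role. Of 4 carrier genes known by other symbols 1 was lower at 7 weeks, Mtch2 (-0.16, adjusted p = 0.0302), an insertase of the outer membrane, and Mtch1 did not pass (0.11). Of 9 genes of the pyruvate carrier, porins and sideroflexins, 6 were lower and 1 was higher, with a median difference of -0.23. Sideroflexins move serine and related amino acids, and Sfxn5 (-0.59), Sfxn2 (-0.50) and Sfxn1 (-0.34) fell while Sfxn3 rose by 0.70. Of the porins of the outer membrane, Vdac1 fell by 0.20 (adjusted p = 0.00306; named after its value was seen), while Vdac2 (-0.04) and Vdac3 (0.08) did not pass. Of 14 genes for import of carriers into the inner membrane 7 were lower and none was higher, with a median of -0.18. They include the chaperones Timm9 (-0.47) and Timm8a1 (-0.39) of the intermembrane space, Timm29 (-0.23) of the carrier translocase and Tomm70a (-0.24), the outer-membrane receptor for carriers.

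Enzymes that supply or use the carriers gave 9 lower, 1 higher and 10 that did not pass of 20, with a median of -0.26. Arg2, the mitochondrial arginase that makes ornithine, rose by 2.09 ± 0.23 (4.25-fold, adjusted p = 8.95e-09). Bckdha and Bckdhb, subunits of the branched-chain keto acid dehydrogenase, fell by 0.73 each, and Fech, the last enzyme of heme synthesis, by 0.38. Ass1 (-0.27) and Cpt2 (-0.26) did not pass. Of 12 regulators of mitochondrial biogenesis 10 were lower and 2 did not pass, with a median of -0.39. The coactivator Ppargc1a fell by 0.42 (adjusted p = 1.7e-05) and the estrogen-related receptors Esrra and Esrrg by 0.41 and 0.37. Tfb2m, a factor for transcription of mitochondrial DNA, fell by 0.37, while its polymerase Polrmt (-0.29) and Nrf1 (0.10) did not pass.

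The start regions of the members were compared with those of all genes in the RefSeq table. Of the 46 members 36 had a start region of 300 bases, 7 of them with several. The median GC content was 59.4% over the members' 46 start regions against 52.7% over all 32851 in the table, and the median number of CpG dinucleotides was 15 against 7. The E-box CACGTG was found in 7 of the 36 (Slc25a1, Slc25a13, Slc25a14, Slc25a15, Slc25a31, Slc25a33 and Slc25a36), or 19.4%, and in 8.09% of all genes. The estrogen-related receptor element TNAAGGTCA and the PPAR-type CAAAGGTCA, which share the letters AAGGTCA, were in none of the 36 and in 1.43% and 0.544% of all genes. Neither CAAAGTCCA (HNF4A core, 0.555% of all genes) nor TGATGNAA (amino acid response core, 4.51%) was found, and GCGCANGCG (most of the NRF1 site, 7.03%) was in Slc25a3 and Slc25a31. Both strands were searched, and a match is a run of letters, not a site shown to be used.

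The comparison at 4 weeks asks which carriers differ early. No member passed in limma in either direction, where 0.0316% of all genes were higher and 0.00902% were lower in KO mice. The median difference was -0.02 over members and -0.01 over all genes. Without WT mice 5 and 8 there were again 0 in either direction, while 54 genes of all were higher and 18 lower in place of 7 and 2. At an unadjusted p below 0.05 there were 5 members (Slc25a2, Slc25a13, Slc25a33, Slc25a35 and Slc25a54), against 9.22% of all genes. Without WT mice 5 and 8 there were 7, the same 5 with Slc25a12 and Slc25a28, against 12.7% of all genes. Slc25a2 had the lowest adjusted p among members (-0.40, adjusted p = 0.101), and it was the member that passed without WT mouse 3 (-0.46, adjusted p = 0.039). Slc25a24 at this age was 6.60, 6.65 and 7.00 in WT and 6.64, 6.92 and 6.99 in KO mice. These ranges overlap almost in full, in contrast to the separation at 7 weeks.

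The genotype difference changed between ages for 14 members by the interaction test in limma. For 12 members the KO minus WT difference was lower at 7 than at 4 weeks, against 7.24% of all genes, and for 2 it was higher, against 9.8%. Slc25a24 shifted most, by 2.05 ± 0.24 (adjusted p = 5.33e-07), from a difference of 0.15 at 4 weeks to 2.20 at 7 weeks. Slc25a48 shifted by -0.81 ± 0.17 (adjusted p = 0.000847), Slc25a21 by -0.69 ± 0.13 (adjusted p = 0.000418) and Slc25a10 by -0.62 ± 0.15 (adjusted p = 0.00472). Slc25a43 shifted by 0.68 ± 0.18 (adjusted p = 0.00615). Without WT mice 5 and 8 at 4 weeks 11 members had a lower and 2 a higher difference. The 7.24% and 9.8% of all genes are from the fit to all mice and are not given for this smaller set. With arrays centred on their medians and all mice kept, 21 members had a lower and 2 a higher difference at 7 weeks, where 15.1% and 7.54% of all genes did, and the share of higher calls among all genes moved from 57.5% to 33.2%.

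In WT kidney between 4 and 7 weeks 17 members rose (15.4% of all genes did) and 6 fell (14.1% did). The median difference of members was 0.02 and that of all genes -0.01. Without WT mice 5 and 8 at 4 weeks 15 members rose and 4 fell. The shares of all genes above are from the fit to all mice and are not given for this smaller set. Members that rose most were Slc25a25, by 0.80 ± 0.22 (adjusted p = 0.00656), Slc25a35, by 0.66 ± 0.13 (adjusted p = 0.000154), Slc25a48, by 0.59 ± 0.12 (adjusted p = 0.000273), and Slc25a23, by 0.59 ± 0.16 (adjusted p = 0.00395). Slc25a10 (0.57), Slc25a42 (0.53) and Slc25a39 (0.45) also rose with age. Slc25a48 went from 7.56, 7.84 and 8.15 at 4 weeks to 8.14, 8.50 and 8.66 at 7 weeks in WT mice, with a small overlap. Members that fell most were Slc25a36 (-0.44, adjusted p = 0.000426), Slc25a46 (-0.41, adjusted p = 0.000207), Slc25a4 (-0.26, adjusted p = 0.00184) and Slc25a27 (-0.25, adjusted p = 0.0219). The call of Slc25a27 was lost without WT mouse 1 or 6 at 4 weeks or WT mouse 2 at 7 weeks (adjusted p = 0.0529 to 0.0588). In the same comparison 9 of 16 proximal tubule markers rose, and their mean level went from 11.87 to 12.18 at 4 weeks to 12.37 to 12.43 at 7 weeks.

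In KO kidney between 4 and 7 weeks 6 members rose (21.4% of all genes did) and 14 fell (21.3% did). With arrays centred on their medians 3 rose (17.6% of all genes) and 21 fell (32.6%), and the share of higher calls over all genes moved from 50.1% to 35.1%. Slc25a24 rose by 1.85 ± 0.17 (adjusted p = 3.79e-10) and Slc25a43 by 0.75 ± 0.12 (adjusted p = 1.03e-05). Slc25a23 (0.43 ± 0.16, adjusted p = 0.0235) and Slc25a22 (0.40 ± 0.14, adjusted p = 0.0218) also rose, calls that were lost after centring. Members that fell most were Slc25a21, by 0.85 ± 0.09 (adjusted p = 1.26e-08), Slc25a46, by 0.68, Slc25a36, by 0.57, and Slc25a33, by 0.51. Slc25a46, Slc25a36, Slc25a4, Slc25a40 and Slc25a14 fell with age in both genotypes, each against its own 4-week group. Slc25a4 had medians of 9.56 at 4 weeks and 9.30 at 7 weeks in WT, and 9.69 and 9.19 in KO mice. Slc25a35, Slc25a48 and Slc25a10, which rose with age in WT mice, did not pass in KO mice, with averages of 8.88 and 9.02, 7.69 and 7.47, and 9.78 and 9.73 at 4 and 7 weeks. Whether that contrast between genotypes exceeds their spread is the interaction test above, which all 3 passed.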

How the data were processed

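Values were gene-level log2 signals that the authors deposited, per the labels after RMA in Affymetrix Expression Console. The submitters' processing notes give no version. No source used here names the genome build of the array annotation. Each mouse gave 1 array, and all 32 columns were matched to a mouse by its label, with 0 left over. Of 41345 features 23521 named 1 symbol and were kept, and a gene with several features was represented by the one of highest mean, which gave 22180 genes. No filter was applied.

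limma 3.58.1 in R 4.3.3 fitted a mean for each of the 4 groups (28 residual degrees of freedom, no variance trend), and 5 comparisons were adjusted over all genes. The threshold was adjusted p below 0.05. The script was tested on simulated data. Exact permutation tests were two-sided over 12870 splits. They were run for the members named in full at 7 weeks and were not adjusted for that choice. Members of largest change at 7 weeks were named in full, up to 10 per direction, with up to 4 per direction in each other comparison, plus Slc25a30 and Slc25a4. In each related list up to 4 passing genes of smallest p and up to 2 others of largest change could be named. Members were all measured genes whose symbol starts with Slc25a and a number. Role groups and lists came from general knowledge. The members to name in full, the role groups and the lists were chosen with earlier results of these data known. Start regions (250 bases before to 50 after) came from RefSeq, GRCm38.p6, matched to members by symbol. Alternatives were median centring, a variance trend, only the mice compared, array weights, other choices of feature, leaving out genes of low mean, a block for the mouse number and leaving out mice. The fit without KO mice 4 and 5 at 4 weeks was chosen after seeing the data, and its counts of passing members are not given. These KO mice had the lowest array weights of all, 0.337 and 0.388. WT mice 8 and 5 at 4 weeks had 0.562 and 0.672. Nothing in the labels says that mice of a group came from separate litters.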

Additional observations from a re-analysis of the deposited data

Results flagged for a closer look

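The genotype difference changed between 4 and 7 weeks, by the limma interaction test over 8 mice per group, for 14 members. Besides Slc25a24 (2.05 ± 0.24, adjusted p = 5.33e-07), Slc25a43 (0.68 ± 0.18, adjusted p = 0.00615), Slc25a48 (-0.81 ± 0.17, adjusted p = 0.000847), Slc25a21 (-0.69 ± 0.13, adjusted p = 0.000418) and Slc25a10 (-0.62 ± 0.15, adjusted p = 0.00472), these were carriers of several classes. Among cofactor and nucleotide carriers the shifts were -0.53 for Slc25a16 (adjusted p = 0.004), -0.48 for Slc25a33 (adjusted p = 0.0128) and -0.33 for the NAD carrier Slc25a51 (adjusted p = 0.0296). Among amino acid carriers they were -0.47 for Slc25a15 (adjusted p = 0.0034) and -0.40 for Slc25a38 (adjusted p = 0.00717). The citrate carrier Slc25a1 shifted by -0.28 (adjusted p = 0.0163), the glutathione carrier Slc25a39 by -0.30 (adjusted p = 0.0281) and Slc25a35 by -0.52 (adjusted p = 0.0395). Slc25a54 shifted by -0.44 (adjusted p = 0.0123) at signals near 4, and its KO minus WT differences of 0.29 at 4 weeks and -0.15 at 7 weeks did not pass.

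For Slc25a30 in KO mice at 4 weeks, mouse 4 lay at 10.98 while the other 7 lay between 10.36 and 10.63. This was 1 of 76 sets of 8 mice checked over 19 members, and the 95% critical value used is one that chance passes in about 1 of 20 sets.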

How the results depend on the processing

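Array centring moved the most. It raised the members whose genotype difference was lower at 7 than at 4 weeks from 12 to 21, and cut those higher at 7 weeks within KO mice from 6 to 3. The members' median difference became -0.33 at 7 weeks, -0.29 for the difference between ages and -0.15 for age in KO mice. Leaving out 1 mouse at a time gave 0 to 1 lower member at 4 weeks, and 23 to 26 lower and 2 to 3 higher at 7 weeks. For the difference between ages it gave 9 to 16 lower, with 16 reached without KO mouse 4 at 4 weeks. The shares of all genes in these fits are not given. Of members called at 7 weeks, Slc25a44 passed in 14 and Slc25a46 in 19 of 26 alternatives, and the others passed in all that gave a value. No named result changed direction. Slc25a27 lost its age difference in WT mice without WT mouse 1 or 6 at 4 weeks or WT mouse 2 at 7 weeks. Within KO mice, Slc25a23 did not pass after centring (0.36, adjusted p = 0.0549), with only the mice compared (adjusted p = 0.069) or without KO mouse 1 or 5 at 4 weeks. Slc25a22 did not pass after centring (0.32, adjusted p = 0.0537), without KO mouse 1 at 4 weeks or without KO mouse 1 or 2 at 7 weeks.

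Mice share only a number across groups: deviations of same-numbered WT and KO mice correlated at -0.27 to 0.232 at 4 weeks and -0.122 to 0.11 at 7 weeks. With the number as a replicate block 24 members were lower and 2 higher at 7 weeks, against 25 and 2 without it. The shares of all genes with the block are not given. At each age 1 of 8 WT mice correlated best with the KO mouse of its number. Low signal limits 9 members whose mean lay below the median gene at 6.27, which are Slc25a2, Slc25a14, Slc25a18, Slc25a29, Slc25a31, Slc25a41, Slc25a47, Slc25a53 and Slc25a54.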
